A study of Mus musculus with 6 samples.

Results

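Genes that mark T cells and natural killer (NK) cells were followed through bulk RNA-seq of the mouse cochlea. The group holds 10 genes: *Cd3d*, *Cd3e* and *Cd3g* of the CD3 complex, the coreceptor genes *Cd4*, *Cd8a* and *Cd8b1*, the kinase gene *Lck*, the cytotoxic granule genes *Nkg7* and *Gzma*, and the NK receptor gene *Klrd1*. They are 10 of 51802 gene symbols listed, and all 10 were among the 17136 genes with enough counts to be tested. The genes were chosen by name after T and NK cell genes such as *Cd8a* had been seen to part some of these same libraries from the others. Their levels are therefore given as a description, and the p-values beside them do not test that choice. For each symbol, estimated counts and FPKM (fragments per kilobase, relative to the depth of the library) were summed over its transcripts in every sample.

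The samples were cochleae of mice at 2 months of age on a C57/BL6J background. One group was wildtype littermates (replicates 3, 4 and 5) and the other *Pou4f3(Δ/+)* (replicates 1, 2 and 3). The *Pou4f3(Δ/+)* mice carry 1 copy of a knock-in allele of *Pou4f3*, the gene of a hair cell transcription factor, with a small deletion and a C-to-T change that end the protein early. The allele is in the germ line, so every cell of these mice carries it. Both groups share the C57/BL6J background, which is known for a progressive hearing loss of its own. The labels do not say how many animals or ears gave a sample, nor that samples came from separate animals, so p-values measure only the spread between these samples.

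T cells recognise antigen through a receptor of alpha and beta (or gamma and delta) chains, which signals through the CD3 chains and the zeta chain. CD8 and CD4 bind the antigen-presenting molecules of class I and class II and bring the kinase *Lck* to the receptor. Cytotoxic T cells and NK cells kill with granules of perforin and granzymes, and NK cells carry receptors of the lectin-like family such as CD94, the product of *Klrd1*. In the adult cochlea lymphocytes are a small population, while the bone around it holds marrow in which blood cells of all lineages are made.

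Summed counts ranged from 14295069 to 17696784 per sample. The cochlear label was borne out by hair cell markers in every library, with summed FPKM of 40.6 to 48.9 over 6 genes such as *Myo7a* and *Otof*. Markers of marrow lineages were far higher, with summed FPKM of 14012 to 17129 over 8 neutrophil genes and 11547 to 17782 over 7 erythroid genes. *Pou4f3* itself had FPKM of 1.67, 2.13 and 2.17 in wildtype and 1.58, 2.65 and 1.50 in *Pou4f3(Δ/+)* samples. These values overlapped, and counts of the whole gene do not separate the normal from the knock-in allele, so they do not check the genotype labels. *Pou4f3(Δ/+)* replicates 1 and 2 stood apart from the other libraries in T and NK cell genes, and results are given with and without replicate 3, which did not. The labels name no batch.

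The members were low except for *Nkg7*. By mean FPKM in wildtype, *Nkg7* stood at 44.5 ± 5.41 (SD, n = 3), followed by *Gzma* at 3.36 ± 0.511, *Lck* at 3.12 ± 0.392 and *Cd4* at 2.62 ± 0.0416. *Cd3g* (2.00 ± 0.370), *Cd3e* (1.41 ± 0.418), *Klrd1* (1.39 ± 0.884), *Cd8a* (1.01 ± 0.248), *Cd8b1* (0.820 ± 0.367) and *Cd3d* (0.477 ± 0.142) were lower still. *Gzma* and *Lck* did not differ beyond their SDs, nor did neighbours in the order from *Cd3e* down to *Cd3d*. The members other than *Nkg7* rest on 9 to 204 counts per sample, so their levels carry a large counting error.

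Most members were high in *Pou4f3(Δ/+)* replicates 1 and 2 and at or below the wildtype level in *Pou4f3(Δ/+)* replicate 3. In replicate 1, 9 of 10 members were above their wildtype mean FPKM, with a median of 2.18 times that mean. In replicate 2, 8 of 10 were above it, with a median of 3.82 times. In replicate 3 only 3 of 10 were above it, with a median of 0.894 times and a range of 0.454 (*Cd8a*) to 1.51 (*Klrd1*). In a bulk sample, a larger number of T and NK cells cannot be told apart from more RNA per cell.

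**Figure D1:**
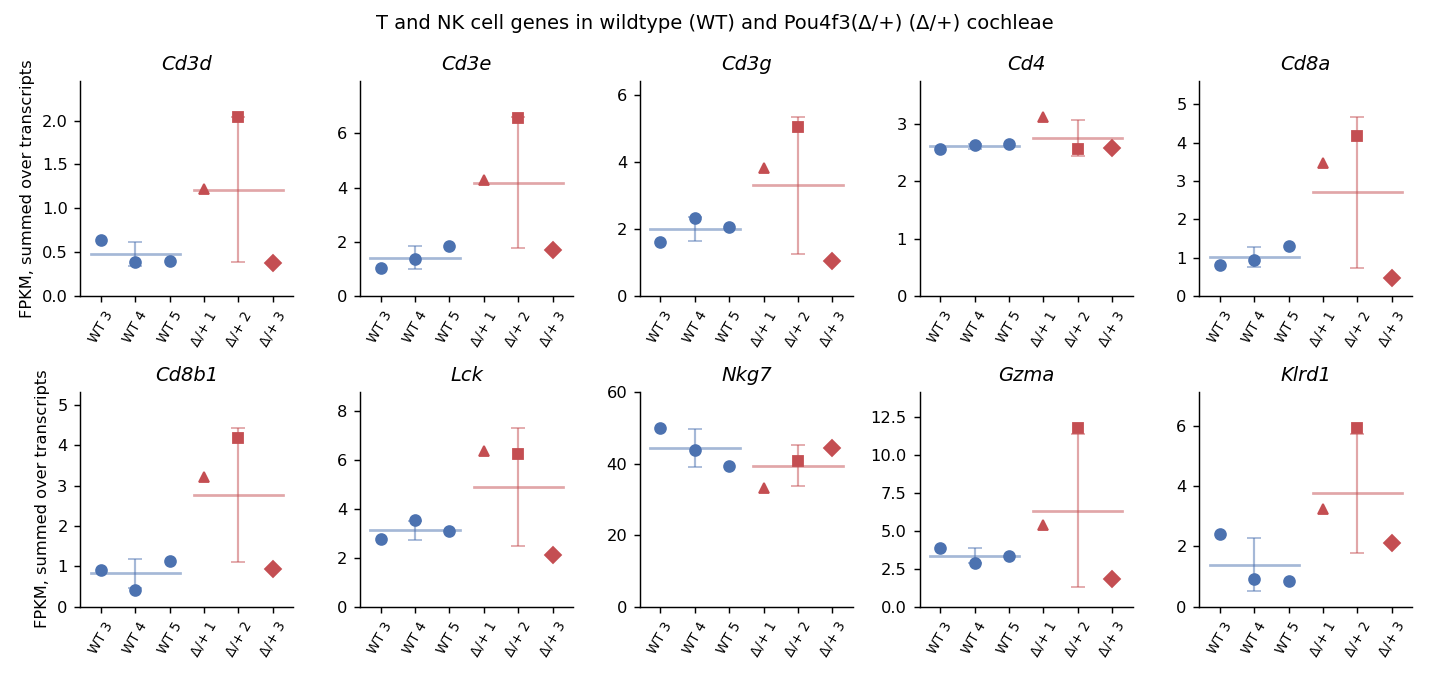
FPKM of the 10 members (y axes, each starting at 0) in 3 wildtype (blue) and 3 *Pou4f3(Δ/+)* (red) samples, with each group's mean (horizontal line) and SD (bar). In 8 panels the triangle and square of *Pou4f3(Δ/+)* replicates 1 and 2 lie above every wildtype point and the diamond of replicate 3 does not, while *Cd4* and *Nkg7* overlap.

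The CD3 genes encode the signalling chains that all T cells carry beside their receptor. *Cd3e* (chr9:44998740-45009627, minus strand, GRCm38) had FPKM of 1.02, 1.35 and 1.85 in wildtype and 4.28, 6.56 and 1.71 in *Pou4f3(Δ/+)* samples. Replicates 1 and 2 were above every wildtype sample, and replicate 3 lay within the wildtype range in FPKM and above it in CPM (counts scaled to library size). Its fitted log2 fold change was 1.55 ± 0.41 (SE), with an adjusted p of 0.643 by edgeR. An exon of *Cd3e* overlaps the antisense gene *Gm48719*, and the counting is not stated to use strand, so reads of the 2 genes could be mixed.

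*Cd3d* (chr9:44981786-44987339, plus strand) had FPKM of 0.64, 0.39 and 0.40 in wildtype and 1.22, 2.04 and 0.38 in *Pou4f3(Δ/+)* samples. Replicate 3 was the lowest of all 6, and its count of 9 equalled the lowest wildtype count. *Cd3g* (chr9:44969572-44980431, minus strand), which starts 1355 bases from *Cd3d* and runs the other way, had FPKM of 1.60, 2.33 and 2.07 in wildtype and 3.83, 5.05 and 1.05 in *Pou4f3(Δ/+)* samples. Both genes were thus highest in replicate 2 and lowest in replicate 3. The log2 fold changes were 1.34 ± 0.57 (SE) for *Cd3d* and 0.78 ± 0.49 for *Cd3g*. Without *Pou4f3(Δ/+)* replicate 2, *Cd3d* stood at 0.75 ± 0.57 and *Cd3g* at 0.33.

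Of the coreceptor genes, those of CD8 were high in the same libraries as the CD3 genes and *Cd4* was not. *Cd8a* (chr6:71373427-71379173, plus strand), the alpha chain of CD8, had FPKM of 0.81, 0.94 and 1.29 in wildtype and 3.46, 4.18 and 0.46 in *Pou4f3(Δ/+)* samples. *Cd8b1* (chr6:71322788-71337494, plus strand), the beta chain found on most cytotoxic T cells, had 0.90, 0.42 and 1.14 in wildtype and 3.20, 4.18 and 0.92 in *Pou4f3(Δ/+)* samples. The 2 chains were therefore high in the same libraries, although only *Cd8a* was below every wildtype sample in replicate 3. *Cd4* (chr6:124864692-124888221, minus strand), the coreceptor of helper T cells, which some dendritic cells also make, had 2.57, 2.63 and 2.65 in wildtype and 3.13, 2.56 and 2.59 in *Pou4f3(Δ/+)* samples. Its groups overlapped, and its log2 fold change was 0.16 ± 0.17 (SE), against 1.37 ± 0.60 for *Cd8a* and 1.74 ± 0.55 for *Cd8b1*.

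The counts of *Cd8a* and *Cd8b1* made up 32.0%, 34.7% and 40.4% of the counts of *Cd8a*, *Cd8b1* and *Cd4* together in wildtype replicates 3, 4 and 5. The same share was 60.2% (95% Wilson interval 55.5% to 64.7%) in *Pou4f3(Δ/+)* replicate 1 and 69.6% (64.9% to 73.8%) in replicate 2. It was 26.5% (20.1% to 33.9%) in replicate 3. The lowest bound of replicates 1 and 2 was above the highest wildtype bound, 46.9%, and replicate 3 overlapped wildtype. These intervals cover counting error only, and the share is one of reads, not of cells.

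*Lck* (chr4:129548344-129573641, minus strand) encodes the kinase that phosphorylates the CD3 and zeta chains. Its FPKM was 2.75, 3.53 and 3.08 in wildtype and 6.37, 6.21 and 2.12 in *Pou4f3(Δ/+)* samples. The log2 fold change was 0.72 ± 0.37 (SE), and 0.41 without *Pou4f3(Δ/+)* replicate 2. The gene has 2 start sites, a proximal one known for its use in the thymus and a distal one known for its use in mature T cells, and also holds the small RNA gene *Mir8119*. The transcript from the distal start (ENSMUST00000102596) was estimated at 21.9, 47.4 and 82.4 counts in wildtype and 149 and 183 in *Pou4f3(Δ/+)* replicates 1 and 2. In replicate 3 it was at 0.02, below the 3 counts that a value of 0 allows. The 3 coding transcripts from the proximal start, 15250 bases away, had 74.1, 20.1 and 27.5 counts in wildtype and 43.0, 20.7 and 57.4 in *Pou4f3(Δ/+)* samples.

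The distal transcript was thus highest in the libraries where *Cd8a* and *Cd3e* were highest, and the proximal ones overlapped between genotypes. The transcripts share most of their exons, so the split between them rests on few reads and on the authors' estimation, and it varied widely among the wildtype samples as well.

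**Figure D2:**
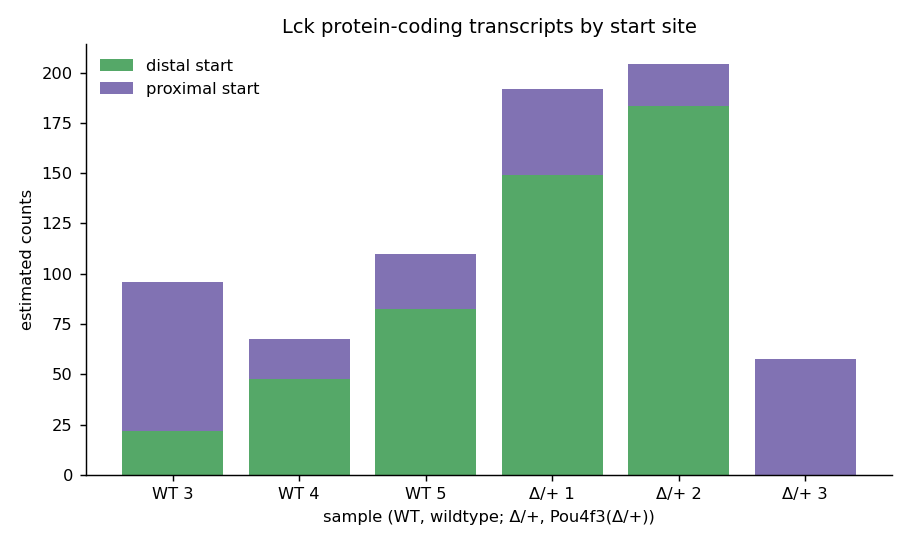
Estimated counts (y axis, from 0) of *Lck* coding transcripts from the distal start (green) and the proximal start (violet), stacked, in each of 6 samples. Distal counts were 149 and 183 in *Pou4f3(Δ/+)* replicates 1 and 2, 21.9 to 82.4 in wildtype and 0.02 in *Pou4f3(Δ/+)* replicate 3.

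The bases before these starts are shown for *Cd3e*, for *Cd8a* and for both *Lck* starts, since *Cd3e*, *Cd8a* and *Lck* were among the members with the clearest difference between libraries, and the *Lck* transcripts differed by start site. Each window is the 250 bases before the RefSeq start (GRCm38.p6), written 5′ to 3′ along the gene. The windows are chr9:45009612-45009861, minus strand for *Cd3e*, chr6:71373177-71373426, plus strand for *Cd8a*, chr4:129573642-129573891, minus strand for the distal and chr4:129558373-129558622, minus strand for the proximal *Lck* start. Capitals mark the letters AGGAAG, the core of sites bound by ETS factors, and TGTGGT, the core of sites bound by RUNX factors, on either strand.
Cd3e: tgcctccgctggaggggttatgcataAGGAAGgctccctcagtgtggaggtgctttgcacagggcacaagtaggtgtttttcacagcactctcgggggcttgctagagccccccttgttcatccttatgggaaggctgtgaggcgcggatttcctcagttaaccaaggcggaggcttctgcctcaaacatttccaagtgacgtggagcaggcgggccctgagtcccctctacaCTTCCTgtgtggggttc
Cd8a: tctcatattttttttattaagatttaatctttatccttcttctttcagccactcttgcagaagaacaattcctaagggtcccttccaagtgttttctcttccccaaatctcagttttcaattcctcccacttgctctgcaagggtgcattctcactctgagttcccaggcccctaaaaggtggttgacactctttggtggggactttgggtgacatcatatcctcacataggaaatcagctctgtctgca
Lck distal start: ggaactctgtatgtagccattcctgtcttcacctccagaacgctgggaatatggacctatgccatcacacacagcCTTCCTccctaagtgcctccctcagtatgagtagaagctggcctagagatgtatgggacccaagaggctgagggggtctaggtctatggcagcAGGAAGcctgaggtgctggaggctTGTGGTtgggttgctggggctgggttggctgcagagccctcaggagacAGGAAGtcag
Lck proximal start: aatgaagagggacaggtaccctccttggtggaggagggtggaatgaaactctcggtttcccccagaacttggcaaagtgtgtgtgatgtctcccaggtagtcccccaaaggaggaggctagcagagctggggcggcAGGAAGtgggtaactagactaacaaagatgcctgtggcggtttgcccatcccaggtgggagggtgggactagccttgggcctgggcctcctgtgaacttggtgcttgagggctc

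Promoters of 7 members were found in the RefSeq table (8 windows with both *Lck* starts). AGGAAG was in 5 of the 8 windows, and in 29.5% of all 32851 windows of this length. The distal *Lck* window held it 3 times, with 1 match ending 5 bases before the start, and the proximal window held it once. TGTGGT was in 3 of 8 windows (*Gzma*, *Nkg7* and distal *Lck*), and in 14.05% of all windows. TATAAA, a form of the TATA box, was in none of the 8 and in 12.4% of all windows. The *Cd8a* and *Cd3g* windows held none of the 3 motifs, and the motifs do not overlap each other in the windows printed. A match describes letters in a window and was not tied to the levels.

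Among the cytotoxic and NK members, *Gzma* and *Klrd1* followed the T cell genes and *Nkg7* did not. *Gzma* (chr13:113093825-113100981, minus strand), a protease of cytotoxic granules, had FPKM of 3.89, 2.87 and 3.32 in wildtype and 5.41, 11.8 and 1.79 in *Pou4f3(Δ/+)* samples, the widest range of the group after *Nkg7*. *Klrd1* (chr6:129591782-129598775, plus strand), which encodes CD94, had 2.41, 0.90 and 0.86 in wildtype and 3.23, 5.95 and 2.10 in *Pou4f3(Δ/+)* samples. Replicate 3 lay between the wildtype samples for *Klrd1* and below all of them for *Gzma*. The log2 fold changes were 0.92 ± 0.55 (SE) for *Gzma* and 1.38 ± 0.52 for *Klrd1*. Single libraries weighed on both, since *Gzma* stood at 0.10 ± 0.44 without *Pou4f3(Δ/+)* replicate 2 and *Klrd1* at 2.11 ± 0.52 without wildtype replicate 3.

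*Nkg7* (chr7:43437073-43438249, plus strand), a granule membrane protein of cytotoxic cells, had FPKM of 50.2, 43.8 and 39.4 in wildtype and 33.3, 40.8 and 44.4 in *Pou4f3(Δ/+)* samples. Its groups overlapped, its lowest value was in *Pou4f3(Δ/+)* replicate 1, and its log2 fold change was -0.17 ± 0.13 (SE). It differed from the other cytotoxic genes in level too, at a mean wildtype FPKM of 44.5 against 3.36 for *Gzma*. Since *Nkg7* held most of the summed FPKM of the members, that sum was only 1.18 times as high in *Pou4f3(Δ/+)* as in wildtype, and 1.97 times without *Nkg7*.

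The members have 37 listed transcripts, of which 11 were listed at an FPKM of 0 in every sample. A single transcript held all or nearly all of the FPKM of *Cd3d*, *Cd8b1*, *Gzma*, *Cd3g* (95.9%), *Nkg7* (95.2%) and *Cd4* (94.5%). For *Cd3e* the leading transcript, ENSMUST00000102832, held 75.1%, and for *Klrd1* ENSMUST00000112063 held 63.0%. The leading transcript of *Cd8a*, ENSMUST00000066747, held 62.2% and had 33.1, 42 and 39.5 counts in wildtype and 124, 98.7 and 16.6 in *Pou4f3(Δ/+)* samples. It too was highest in replicates 1 and 2 and lowest in replicate 3.

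Across all 6 samples no gene passed an adjusted p of 0.05 in edgeR's quasi-likelihood test (0% of 17136 genes), so none of the members did. The smallest adjusted p over all genes was 0.223, and those of the members ran from 0.643 to 0.810. At an unadjusted p under 0.05, 1309 genes were found, and 3.5% of all genes were both at that level and higher in *Pou4f3(Δ/+)*. *Cd3d*, *Cd3e*, *Cd8b1* and *Klrd1* were among the latter, 4 of 10 members. The log2 fold change was above 0 for 9 of 10 members and for 49.4% of all genes, with a median of 1.13 over the members and -0.0027 over all genes. As these libraries served to choose the members, these counts say nothing beyond that choice.

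By CPM, replicates 1 and 2 were above every wildtype sample, and replicate 3 was not, for 8 of 10 members (*Cd4* among them on this scale) and for 11.7% of all genes. *Cd3e* was the 1 member with all 3 *Pou4f3(Δ/+)* samples above all wildtype samples, as were 6.07% of all genes. Replicate 3 was below every wildtype sample for *Cd3d*, *Cd3g*, *Cd8a*, *Lck* and *Gzma*, 5 of 10 members, against 25.1% of all genes. The genotype difference of the members thus came from 2 of the 3 *Pou4f3(Δ/+)* libraries.

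Without *Pou4f3(Δ/+)* replicate 3, edgeR called 193 of 17513 genes (1.1%), and 4 members were among them. These were *Cd8a* (log2 fold change 1.86 ± 0.23 SE, adjusted p = 0.0182), *Cd3e* (1.89 ± 0.28, 0.0284), *Lck* (1.09 ± 0.17, 0.0300) and *Cd8b1* (2.16 ± 0.38, 0.0426). That fit leaves out the library in which most members were at or below the wildtype level. Its adjusted p-values therefore describe replicates 1 and 2 and do not test the genotype. Leaving out any of the other 5 samples called no member. With replicate 3 as the only *Pou4f3(Δ/+)* sample, the members' median log2 fold change was -0.18, and *Cd8a* stood at -1.10 ± 0.45, *Gzma* at -0.93 ± 0.42 and *Cd3g* at -0.89 ± 0.48. DESeq2, the tool named for this series, called 64 of 17108 genes over all 6 samples (0.374%), and of the members only *Cd3e* (adjusted p = 0.0359).

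**Figure D3:**
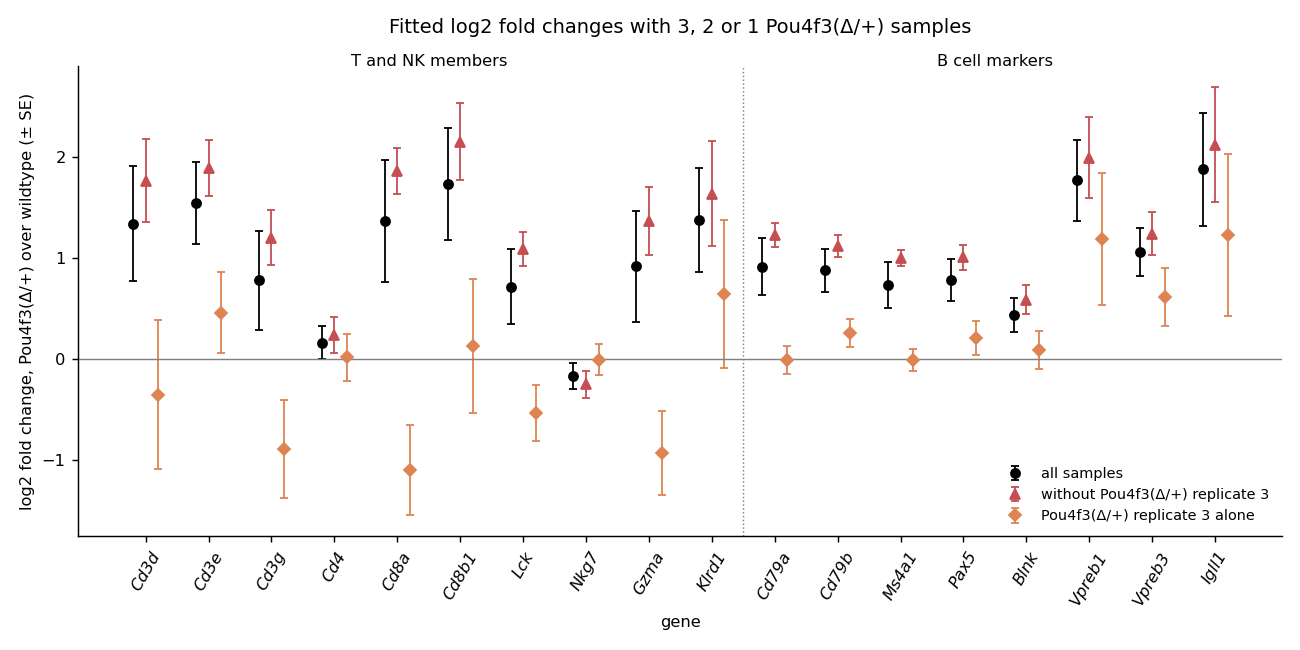
Fitted log2 fold change of *Pou4f3(Δ/+)* over wildtype (y axis, ± SE) for the 10 members and 8 B cell markers, from all samples (black), without *Pou4f3(Δ/+)* replicate 3 (red) and with replicate 3 as the only *Pou4f3(Δ/+)* sample (orange). *Cd8a* stood at 1.37, 1.86 and -1.10 in these 3 fits, and *Cd79b* at 0.88, 1.12 and 0.26.

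The members were set against markers of B cells in the same libraries. All 9 B cell markers were higher in *Pou4f3(Δ/+)*, with a median log2 fold change of 0.88 and no call by edgeR at an adjusted p of 0.05. DESeq2 over all 6 samples did call *Cd79b* and *Vpreb3* (adjusted p = 0.00756 each), *Pax5* (0.0215) and *Igll1* (0.0475), and edgeR without replicate 3 called *Cd79a*, *Cd79b*, *Ms4a1*, *Pax5* and *Vpreb3*. *Cd79a*, a signalling chain of the B cell receptor, had FPKM of 44.6, 46.0 and 37.1 in wildtype and 88.0, 109 and 42.9 in *Pou4f3(Δ/+)* samples. *Cd79b*, its partner, had 30.2, 32.3 and 25.9 against 59.0, 67.9 and 35.9. Like the T cell genes, both were highest in replicate 2, but in replicate 3 *Cd79a* lay within the wildtype range and *Cd79b* above it.

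The surface marker *Ms4a1* had a log2 fold change of 0.73 ± 0.23 (SE), the transcription factor gene *Pax5* 0.78 ± 0.21 and the adaptor gene *Blnk* 0.44 ± 0.17. The genes of the surrogate light chain of B cell precursors had 1.77 ± 0.40 (*Vpreb1*) and 1.88 ± 0.56 (*Igll1*), and *Vpreb3* had 1.06 ± 0.24. These 3 genes were above every wildtype sample in all 3 *Pou4f3(Δ/+)* libraries. *Igll1* had FPKM of 1.58, 2.79 and 0.41 in wildtype and 5.85, 7.61 and 4.18 in *Pou4f3(Δ/+)* samples. No B cell marker was below its wildtype mean FPKM in replicate 3, where 7 of 10 T and NK members were. Some genes lay close to that mean, such as *Ms4a1* at 1.002 times and *Nkg7* at 0.998 times. In the fit to counts with replicate 3 as the only *Pou4f3(Δ/+)* sample, 7 of 9 B cell markers and 4 of 10 members were higher.

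On the scale of mean log2 CPM over a list, taken from the wildtype mean, the T and NK members stood at 1.02 in *Pou4f3(Δ/+)* replicate 1, 1.49 in replicate 2 and -0.20 in replicate 3. The B cell markers stood at 1.19, 1.36 and 0.44 in the same samples, and the wildtype samples at -0.16 to 0.12 for the members and -0.34 to 0.29 for the B cell markers. The B cell mean minus the T and NK mean was 2.18, 2.70 and 1.88 in wildtype and 2.43, 2.13 and 2.90 in *Pou4f3(Δ/+)* samples. The group means of that distance, 2.25 ± 0.42 (SD, n = 3) and 2.48 ± 0.39, differed by 0.23, less than either SD. That difference rested on single libraries, at 0.025 without *Pou4f3(Δ/+)* replicate 3 and 0.045 without wildtype replicate 5, but 0.41 without *Pou4f3(Δ/+)* replicate 2 and 0.45 without wildtype replicate 4. With *Cd4* and *Nkg7* left out of the members, an alternative added after the values were seen, the difference was 0.038. Over all members, replicates 1 and 2 lay within the wildtype range of that distance, and replicate 3 had the widest of the 6.

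In counts, the 3 CD3 genes held 4.21%, 4.83% and 5.68% of the summed counts of CD3 and CD79 genes in wildtype replicates 3, 4 and 5. The share was 5.76% (95% Wilson interval 5.06% to 6.55%) in *Pou4f3(Δ/+)* replicate 1, 7.04% (6.29% to 7.87%) in replicate 2 and 4.25% (3.37% to 5.35%) in replicate 3. The interval of replicate 2 lay above those of wildtype replicates 3 and 4 and overlapped that of replicate 5 (4.64% to 6.94%). CD3 reads thus kept to a few percent of these reads in every library.

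The other genes of T and NK cells were read from a list of 76, of which 61 were tested. Of these 54 were higher in *Pou4f3(Δ/+)* (49.4% of all genes were) and 7 lower, none with an adjusted p under 0.05 by edgeR. At an unadjusted p under 0.05, 18 were higher, against 3.5% of all genes. Their median log2 fold change was 0.54, and 36 of 61 had the pattern of high replicates 1 and 2 without replicate 3, as did 11.7% of all genes. In 48 of the 61 the highest library was replicate 2, which was the highest for 20.8% of all genes. Without replicate 3, edgeR called 5 of them, where it called 1.1% of all genes: *Il7r* (adjusted p = 0.00871), *Ikzf3* (0.0275), *Trac* (0.0300), *Lat* (0.0386) and *Cd2* (0.0445), named here after their values were seen. Their adjusted p-values carry the same limit as those of the members without replicate 3. *Il7r*, the interleukin-7 receptor, and *Ikzf3*, a lymphocyte transcription factor, are also known from B cells and their precursors.

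**Figure D4:**
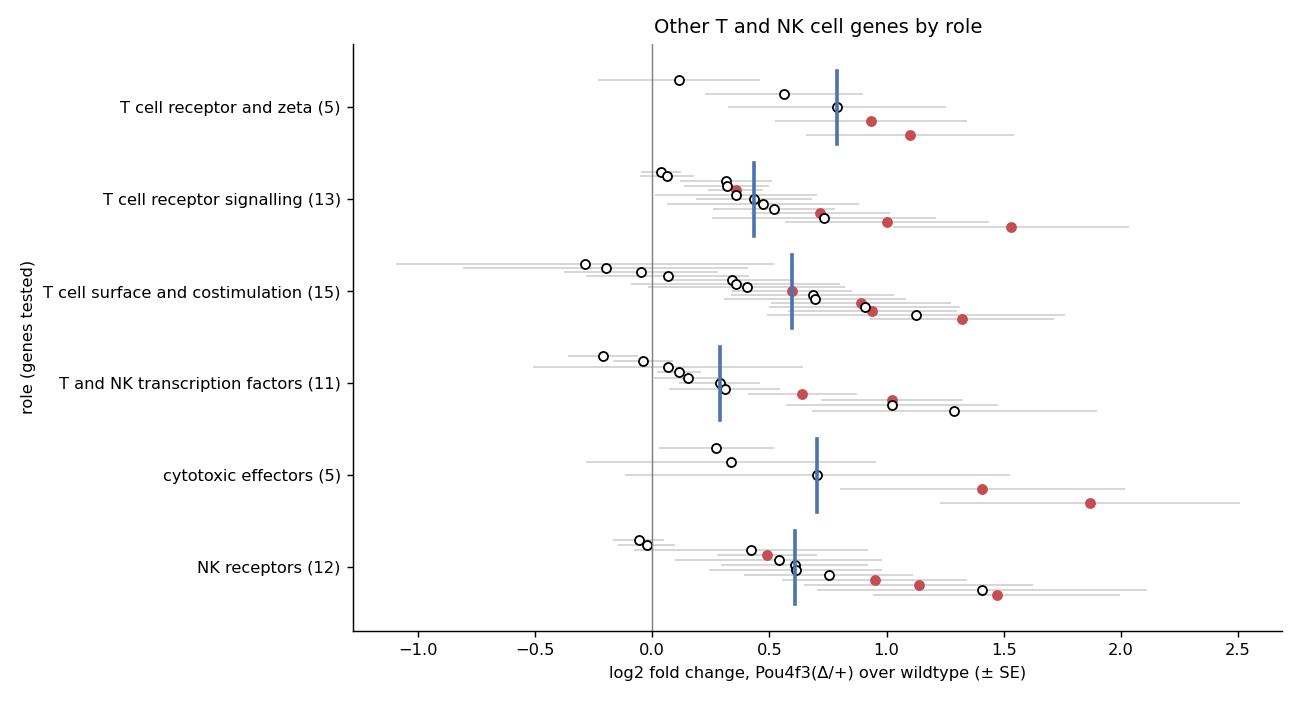
Log2 fold change of *Pou4f3(Δ/+)* over wildtype (x axis, ± SE in grey) for 61 other T and NK cell genes by role (y axis), with filled points at an unadjusted p under 0.05 and a blue line at each role's median. The medians run from 0.29 (transcription factors) to 0.79 (T cell receptor and zeta), and 7 genes lie below 0.

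Of the T cell receptor and zeta genes, 5 of 8 were tested and all 5 were higher, with a median of 0.79. *Trac*, the constant region of the alpha chain, had FPKM of 3.04, 3.26 and 2.18 in wildtype and 7.68, 8.97 and 2.12 in *Pou4f3(Δ/+)* samples. Its log2 fold change was 1.10 ± 0.44 (SE). The beta constant genes *Trbc1* (0.93 ± 0.41) and *Trbc2* (0.79 ± 0.47) are near-identical, so reads may be split between them. The delta constant gene *Trdc* had 0.11 ± 0.35, and the gamma constant genes *Tcrg-C1*, *Tcrg-C2* and *Tcrg-C4*, with 52, 39 and 24 counts over all samples, were too low to test. *Trdc* overlapped between genotypes, with FPKM of 0.29 to 0.49 in wildtype and 0.32 to 0.53 in *Pou4f3(Δ/+)* samples.

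Variable segments of the alpha chain, summed over 128 listed segments, had 11, 6 and 22 counts in wildtype and 23, 23 and 6 in *Pou4f3(Δ/+)* samples. Those of the beta chain, over 35 segments, had 23.9, 9 and 26 in wildtype and 39, 40 and 15. Gamma and delta segments had at most 7 counts in any sample. At this depth the segments could not be compared one by one.

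Of 15 listed genes of T cell receptor signalling 13 were tested, all were higher, and their median was 0.43. The highest was *Zap70*, the kinase recruited to the zeta chain, with 1.53 ± 0.50 (SE) and FPKM of 0.33, 0.46 and 0.29 in wildtype and 0.62, 1.75 and 0.67 in *Pou4f3(Δ/+)* samples. Of 15 tested surface and costimulation genes 12 were higher (median 0.59), and 3 lower. Among the latter were *Icos* (-0.29 ± 0.81) and *Cd28* (-0.20 ± 0.61), both costimulatory receptors with 67 and 48 counts over all samples. Both SEs exceed the values.

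Of 11 tested transcription factor genes 9 were higher, with a median of 0.29, the lowest of the roles. All 5 tested cytotoxic effector genes were higher, with a median of 0.70. The highest of the whole list was *Ccl5*, a chemokine of activated T and NK cells, at 1.87 ± 0.64 (SE), with FPKM of 5.09, 3.02 and 3.15 in wildtype and 5.71, 29.4 and 6.13 in *Pou4f3(Δ/+)* samples. Most of that value came from replicate 2. Of 12 tested NK receptor genes 10 were higher, with a median of 0.61, led by *Klre1* at 1.47 ± 0.53. Several NK receptor genes are close copies of each other, and their reads may be shared.

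Other cell types were read in the same libraries. The genes *Rag1*, *Rag2* and *Dntt*, which cut and join receptor genes in B and T cell precursors, had a median log2 fold change of 1.10 and were higher in all 3 *Pou4f3(Δ/+)* samples than in any wildtype sample. None was called by edgeR over all samples, whereas DESeq2 called *Dntt* (adjusted p = 0.00742) and *Rag1* (0.0431), and edgeR without replicate 3 called *Dntt* (0.0426). *Ptcra*, which marks precursors of T cells, was at 0 to 0.16 FPKM in every library. Erythroid genes had a median of 0.30 (7 of 7 higher), dendritic cell genes 0.37, pan-leukocyte genes 0.10, macrophage genes 0.04 and neutrophil genes -0.02. Bone genes had a median of -0.11, hair cell genes 0.02 and stria vascularis genes -0.36 (4 of 4 lower).

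Some of these lists moved with replicates 1 and 2. The erythroid mean log2 CPM was 10.05 and 10.14 in *Pou4f3(Δ/+)* replicates 1 and 2, against 9.39 to 9.77 in wildtype and 9.57 in replicate 3. The bone mean was 6.25 and 6.46 in replicates 1 and 2, against 6.56 to 6.73 in wildtype and 6.65 in replicate 3. The stria vascularis mean was below wildtype (6.16 to 6.30) in all 3 replicates, at 5.72, 5.59 and 6.05. The macrophage mean was 6.66 and 6.78 in replicates 1 and 2, against 6.55 to 6.68 in wildtype, and lowest in replicate 3, at 6.40. What part these differences in the make-up of the samples have in the T and NK cell values was not tested. The hair cell mean, 3.73 and 3.87 in replicates 1 and 2, lay within or just above the wildtype range of 3.64 to 3.79.

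**Figure D5:**
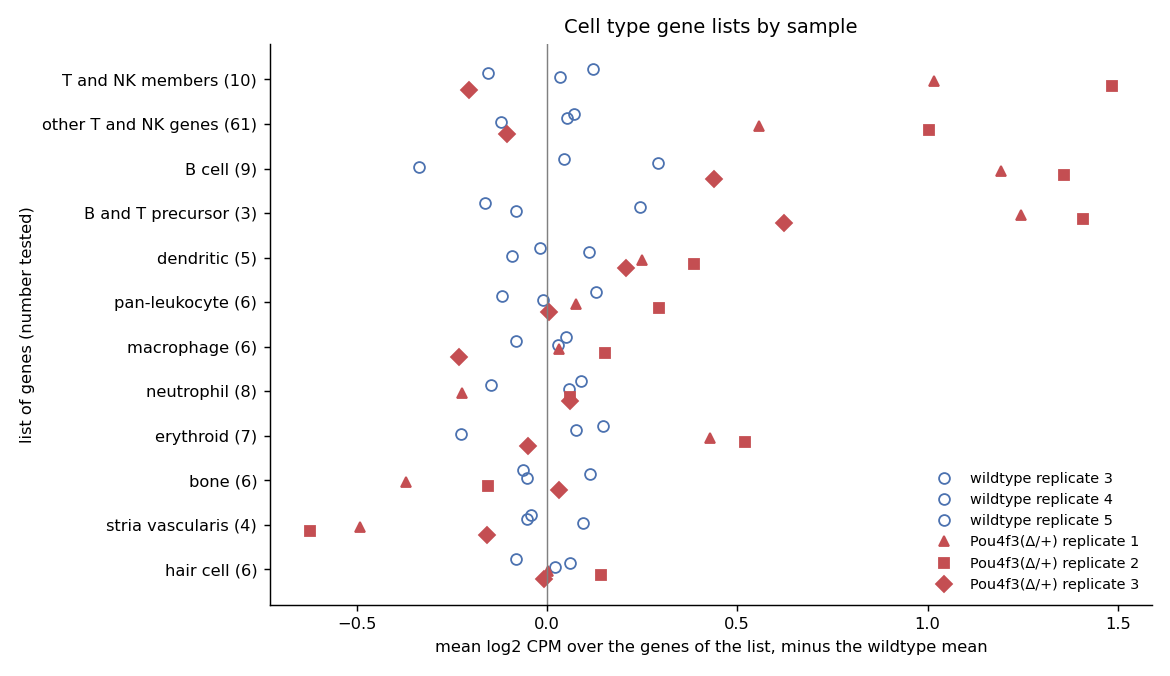
Mean log2 CPM over the tested genes of each cell type list minus the wildtype mean (x axis) by list (y axis), for wildtype samples (open circles) and *Pou4f3(Δ/+)* replicates 1 (triangle), 2 (square) and 3 (diamond). T and NK members stand at 1.02, 1.49 and -0.20 in the *Pou4f3(Δ/+)* replicates and B cell markers at 1.19, 1.36 and 0.44.

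The genes outside all lists with the sample profile nearest to the mean of the members were *Igkv1-135*, a segment of the immunoglobulin light chain, *Gimap1*, a GTPase gene of lymphocytes, *Dpep1*, a membrane dipeptidase gene, *Gpr174*, a receptor gene of lymphocytes, and *Gimap1os*, on the opposite strand of *Gimap1*. Their root-mean-square distances from that profile were 0.07 to 0.12 on the centred log2 CPM scale over 6 samples. *Gimap1* had FPKM of 5.91, 5.68 and 6.24 in wildtype and 13.5, 14.01 and 5.41 in *Pou4f3(Δ/+)* samples. *Dpep1* had 10.4, 6.70 and 9.19 in wildtype and 16.7, 22.0 and 7.75 in *Pou4f3(Δ/+)* samples. All 5 were thus high in replicates 1 and 2 alone, which follows from how they were picked.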

How the data were processed

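Poly(A) or rRNA-depleted RNA of 3 wildtype and 3 *Pou4f3(Δ/+)* cochlear samples was sequenced with paired-end reads. The authors deposited expected counts (estimated counts per transcript, not normalized, which need not be whole) for 128603 transcripts in each sample. The authors also deposited FPKM per transcript, scaled to transcript length and to the sample's counts. The submitters' processing notes list DESeq2 and mm8, while the deposited transcript names were matched to GENCODE M21 (GRCm38), from which gene coordinates were taken. The aligner, the counting program, its annotation and its use of strand are not given in the sources used here.

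Counts were summed per gene symbol, rounded and tested with edgeR 4.0.16 in R 4.3.3: genes were kept by filterByExpr (with its defaults of 10 for the count and 15 for the total), scaled by TMM, and compared between genotypes by the quasi-likelihood test with no covariate. P-values were adjusted by Benjamini-Hochberg over all genes, at a threshold of 0.05. SEs are the log2 fold change over the square root of F. CPM were TMM-scaled, with a prior count of 2 on the log2 scale. Summaries were made with Python 3.11.15, pandas 2.3.3, NumPy 2.4.6 and SciPy 1.17.1. The fits were tested on simulated data. Alternatives were DESeq2 1.42.0, its size factors, no filter, limma 3.58.1 on log2(FPKM + 0.5) and on log2 with pseudocounts of 0.1 and 1, a prior count of 0.5, each sample left out, and *Pou4f3(Δ/+)* replicate 3 alone. Members and lists were chosen with earlier results of these data known. The genes named are all members, all B cell markers, the 3 highest and 3 lowest other T and NK genes, the receptor constant genes, each member's leading transcript, and the 5 nearest profiles. Items that this rule selects are in part not reported here. Each library had 14295069 to 17696784 counts, and intervals and the floor of 3 counts cover counting error only. Promoter sequences are RefSeq's.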

Additional observations from a re-analysis of the deposited data

How the results depend on the processing

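No paired analysis was possible because the labels name no pairs, and the genotypes share only 1 replicate number. The number of genes past the threshold was 0 in edgeR, 64 with DESeq2, 9 without a filter on low counts and 6 with *Pou4f3(Δ/+)* replicate 3 as the only sample of its genotype, and it ranged from 0 to 193 when 1 sample was left out, with 193 without *Pou4f3(Δ/+)* replicate 3 and 3 without wildtype replicate 4. The number of members called was 1 with DESeq2 and ranged from 0 to 4 with 1 sample left out, and that of other T and NK genes from 0 to 5, in both cases above 0 only without *Pou4f3(Δ/+)* replicate 3. The members' median log2 fold change ranged from 0.58 to 1.50 with 1 sample left out, was 0.61 by limma on log2(FPKM + 0.5) (0.72 after adding 0.1 instead, 0.51 after adding 1), and reversed to -0.18 with replicate 3 alone, where *Cd3d* (-0.35), *Cd3g* (-0.89), *Cd8a* (-1.10), *Lck* (-0.54) and *Gzma* (-0.93) reversed. In that fit the lone sample is assumed to vary like the wildtype samples. The B cell median then moved to 0.21, the B cell minus T and NK difference to 0.64, and the ratio of summed FPKM to 0.948. That ratio was 1.97 without *Nkg7*, an alternative added after the values were seen. The causes were not tested. The members other than *Nkg7* have few counts, which limits what a single library shows.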
